A study of Mus musculus with 18 samples.

Results

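DNA transposons are mobile elements that move as DNA, cut out and pasted elsewhere by a transposase enzyme, without an RNA intermediate. Their RNA was followed here as all repeat subfamilies whose annotated class is DNA in the deposited repeat tables, which are 156 of 906 subfamilies with 154990 of 3927115 annotated copies. RNA was sequenced from 18 libraries of the male mouse embryonic stem cell line E14Tg2a, either wild type (the parental line) or a line without a functional copy of Daxx (Daxx-/-, called Daxx-null here). Each genotype was grown in 3 cultures with n = 3 libraries per group. Serum cultures contained leukaemia inhibitory factor (LIF) at 1000 units/mL, which keeps the cells undifferentiated. The 2i cultures contained LIF, inhibitors of the kinases GSK3 and MEK, and vitamin C at 100 µg/mL, conditions known to favour ground-state pluripotency. The last was retinoic acid, given at 10 µM without LIF for 4 days after 24 h without LIF, as a neural differentiation. The labels call the 3 libraries of a group independent replicates and do not say how they were separated, so the p-values reflect only how far these libraries varied, which may be technical. The null line is a single line in the series design, and a change of the line as a whole and the loss of Daxx cannot be told apart.

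In the mouse genome most DNA transposons are old and no longer move, and their copies have gathered many base changes since they were inserted. The hAT superfamily (named after hobo, Activator and Tam3) holds the Charlie, Tip100 and MER1_type families, and the Tc1/mariner superfamily holds the Tigger, MER2_type, Tc2 and Mariner families. Many copies lie within introns and untranslated regions of genes, where they are read as part of the host transcript, and several host genes are themselves descended from transposases. Daxx is a chaperone that, with Atrx, deposits the histone variant H3.3 at heterochromatin and repeats.

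The 156 subfamilies fall into 16 annotated families, of which 101 subfamilies are hAT, 47 Tc1/mariner, 5 MuDR, 1 PiggyBac and 2 unclassified. Their divergence from the consensus was 15.9 to 34.9% with a median of 29.3%, against a median of 27.0% over all repeats and 25.4% over LTR elements. Copies per subfamily ran from 2 to 17462 with a median of 299.5, and the median length of a copy was 180.1 bases. One value per subfamily was deposited, and the position of single copies relative to exons and introns was not analysed here. The assembled consensus sequences were not used here either.

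Expression is given as the authors' FPKM, which for repeats is divided by the number of copies and their mean length and scaled to the library's own set of repeat reads. The scale is by inference about 10 times that of a conventional FPKM. Because the low values are whole multiples of a smallest step, the number of counting units (the value of 1 read or fragment) could be recovered for each subfamily and library. The repeat set ranged from 8.04 to 18.96 M units (1 M is 1000000) and the gene set from 84.2 to 141.7 M, and DNA transposons held 156501 to 260878 units per library. Of the 156 subfamilies, 153 passed the filter of a value above 0 in at least 9 of 18 libraries, and 2 were at 0 in every library. Tests used limma on log2(FPKM + 0.526) over all 864 repeat subfamilies that passed, and the term called means a p under 0.05 after Benjamini-Hochberg adjustment over those 864.

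Checks of the labels came first. Daxx itself (mm9, chromosome 17, 34046390 to 34052535) had an FPKM of 238 to 434 in the 9 wild-type libraries and 54.4 to 73.7 in the 9 Daxx-null libraries. The summed FPKM of Y-linked genes was 155.5 to 349.4 in all wild-type libraries and 173.2 to 236.5 in Daxx-null 2i, but 1.20 to 2.68 in Daxx-null serum and retinoic acid, so the Daxx-null cells of 2i and those of the other cultures differ in this respect as well. Stem cell markers summed to 20303 to 27312 in serum and wild-type 2i, 8450 to 16500 in Daxx-null 2i and 550.4 to 918.0 in retinoic acid. Daxx-null 2i replicate 2 stood apart: its neural markers summed to 1711 against 278.6 and 254.9 in its replicates, with Map2 at 192 against 6.76 and 8.57, and fibroblast markers at 360.0 against 56.8 and 58.0. Wild-type 2i replicate 3 had the lowest fibroblast sum of its group, 19.1 against 89.0 and 84.3, and 2i results are therefore also given without both libraries. In bulk RNA, fewer cells of a type and less RNA per cell cannot be told apart.

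DNA transposons made up a small share of the repeat set, and that share moved with the culture far more than with Daxx. Wild-type serum libraries held 1.67, 1.68 and 1.72% of the repeat set, wild-type 2i libraries 1.06, 1.08 and 1.26%, and wild-type retinoic acid libraries 2.39, 2.40 and 2.37%. The wild-type libraries of the 3 cultures did not overlap. Daxx-null serum libraries held 1.49, 1.59 and 1.54%, Daxx-null 2i libraries 1.12, 1.39 and 1.06%, and Daxx-null retinoic acid libraries 2.45, 2.34 and 2.24%. Daxx-null and wild type overlapped in 2i and retinoic acid, and in serum all 3 Daxx-null libraries were below the wild-type ones, with a ratio of means of 0.912.

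Set against the gene reads of the same library, the same RNA varied less between libraries. Per M gene-set units, DNA transposons held 1909 ± 113 units in wild-type serum against 1824 ± 153 in Daxx-null serum (SD, n = 3 each). The 2i cultures gave 1653 ± 55.8 for wild type and 1913 ± 85.3 for Daxx-null cells, and those treated with retinoic acid 1799 ± 35.9 and 1682 ± 73.4. On this scale the genotypes did not overlap in 2i, where Daxx-null libraries were higher (a ratio of means of 1.16), nor in retinoic acid, where they were lower (0.935), and they overlapped in serum. The ratios of all other repeats together were close to these, at 1.12 in 2i and 0.949 in retinoic acid. The highest of the 18 libraries was 1.28 times the lowest on this scale, against 2.31 times on the share of repeats. All other repeats together differed 3.00-fold between the lowest and the highest library, LINE elements 6.16-fold and LTR elements 5.17-fold. The 12 subfamilies of L2, CR1 and MIR, ancient LINE and SINE elements that likewise no longer move, differed 1.26-fold, from 2203 to 2784 units. By this arithmetic a change in the deposited FPKM of a DNA transposon contains the change in the remaining repeats, and counts are given below on both scales.

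**Figure D1:**
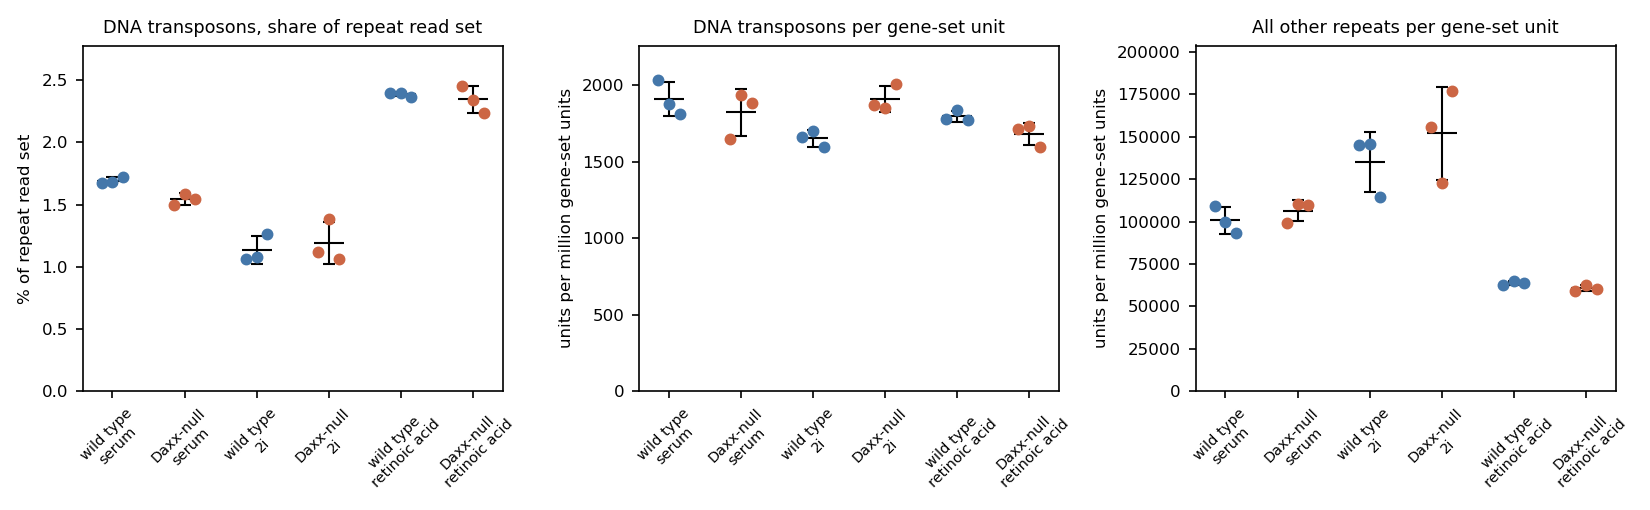
Summed DNA transposon RNA in each of 18 libraries (points), as a percentage of the repeat read set (left) and per M gene-set units (middle), with all other repeats per M gene-set units (right). Bars are mean ± SD of 3 libraries; the left panel spans 1.06 to 2.45%, the middle one 1594 to 2034 units and the right one 59080 to 177208 units.

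Within the class, a few subfamilies, most of them with many copies, carried much of the RNA. URR1A and URR1B are nonautonomous hAT elements of rodents with the lowest divergence of the class (15.9% and 16.4%). With 17462 and 16903 of the 154990 copies of the class, they gave 12.3% and 11.9% of all DNA transposon units. The 10 subfamilies with the most units, among them MER20, MER2, MER5A and RCHARR1, gave 51.9%. hAT elements made up 74.4 to 79.2% of the units in every library and Tc1/mariner elements 19.6 to 24.5%, so the balance of the main superfamilies varied little. Per copy and base the order was different, since the highest mean FPKM over all libraries was that of Charlie6 (74.5, 144 copies), followed by Tigger10 (47.7) and FordPrefect, a Tip100 element (44.0).

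URR1A, the subfamily with the most copies, was measured closely in each group. Its FPKM in wild-type serum was 6.81, 6.74 and 7.22, falling to 4.05, 4.06 and 4.89 with 2i and standing at 9.05, 9.38 and 9.07 with retinoic acid. Daxx-null serum libraries had 5.95, 6.37 and 6.21, Daxx-null 2i libraries 3.86, 5.08 and 3.90, and Daxx-null retinoic acid libraries 8.72, 8.82 and 8.31. Cultures were separate on this scale. After rescaling to the gene read set the wild-type difference between retinoic acid and serum turned from 0.38 to -0.16 (limma adjusted p = 0.079), and that between 2i and serum went from -0.62 to -0.28 (limma adjusted p = 0.0080). None of the 3 Daxx comparisons of URR1A was called (log2 difference -0.15, -0.02 and -0.08; limma adjusted p = 0.28, 0.89 and 0.64). URR1B gave -0.11, 0.05 and -0.06. RCHARR1, a hAT element with 6651 copies, gave -0.22, 0.11 and -0.02. None of these was called as deposited, and RCHARR1 in 2i was called after rescaling (0.24, limma adjusted p = 0.025).

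MADE2, a Mariner element, has the next lowest divergence of the class, 24.1%, and the shortest copies, of 71.0 bases. Its FPKM was 5.72, 7.03 and 8.29 in wild-type serum, against 3.30, 5.38 and 2.70 in Daxx-null serum. It reached 14.4 to 19.0 in wild-type retinoic acid libraries and 13.8 to 29.8 in Daxx-null ones. None of its Daxx comparisons was called (limma adjusted p = 0.17, 0.22 and 0.70 in serum, 2i and retinoic acid), while its wild-type cultures differed by -1.01 with 2i and 1.15 with retinoic acid, both called. MARNA, the Mariner element with the most copies (559), stood at 15.3 to 16.6 FPKM in wild-type serum and 13.8 to 16.4 in Daxx-null serum, and at 26.0 to 29.0 and 27.4 to 31.9 after retinoic acid. Its genotypes overlapped in all 3 cultures.

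Among abundant members of other families, MER53, MER105, Looper and Charlie6 were called in 1 of the Daxx comparisons and are described with it. Tigger10 had the most copies and the highest mean FPKM of the annotated Tigger family. It had 32.3 to 35.7 FPKM in wild-type serum and 35.4 to 38.7 in Daxx-null serum. After retinoic acid it had 67.7 to 76.8 and 68.9 to 79.9. FordPrefect differed in retinoic acid, at 40.4, 38.7 and 37.4 FPKM in wild-type and 63.2, 53.2 and 58.5 in Daxx-null libraries. The groups did not overlap, but the difference of 0.58 was not called (limma adjusted p = 0.11), and in 2i the Daxx-null values of 53.6, 26.2 and 43.5 straddled the wild-type range of 31.3 to 32.8.

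In serum, a small number of DNA transposons differed in Daxx-null libraries, more of them lower than higher. Daxx-null serum libraries also nearly lacked Y-linked RNA (1.20 to 2.68 in Daxx-null serum and retinoic acid), and the part of any other difference between the lines was not tested. Of 153 subfamilies tested, 5 were called higher, where 3.59% of all 864 repeats were, and 14 lower, where 7.29% were. That is 3.27% and 9.15% of the class. The median log2 difference was -0.13 for the class and -0.10 for all repeats. After rescaling to the gene read set 4 were higher and 12 lower, of which 3 and 10 were the same subfamilies, against 2.43% and 3.36% of all repeats. The lower calls were then 7.84% of the class, a larger excess over all repeats than as deposited. As deposited, the 3 Daxx-null libraries lay below all 3 wild-type ones in 61 subfamilies, where 34.7% of all repeats did, and above them in 13, where 10.4% did. After rescaling they lay below in 30 (14.9% of all repeats) and above in 21 (11.3%). Leaving out any 1 of the 6 serum libraries left 9 lower and 2 to 4 higher, and a fit on the serum libraries alone gave 22 lower and 4 higher. Shares of all repeats are not given for these fits.

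Ricksha_c, a MuDR (Mutator-like) element with 383 copies, fell furthest. Its FPKM was 10.3, 11.5 and 9.07 in wild-type and 1.75, 2.78 and 2.76 in Daxx-null serum. Every wild-type serum library lay above every other library of the study, since it was 1.22 to 1.66 in wild-type and 1.46 to 2.69 in Daxx-null 2i, and 2.44 to 3.05 and 2.48 to 2.80 in retinoic acid. The difference in serum was -1.88 ± 0.18 on the log2 scale (SE; limma adjusted p = 1.2e-05), and -1.84 after rescaling to the gene read set. Its high value thus belonged to wild-type serum, and leaving out any single serum library kept the call.

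MER53, a short hAT element with 1683 copies, fell from 9.97, 10.3 and 10.1 to 6.26, 6.88 and 6.50 FPKM. The groups did not overlap, and the difference was -0.59 ± 0.09 (SE; limma adjusted p = 0.0015). MER105, an unclassified element, fell from 19.1, 20.2 and 19.3 to 12.2, 14.4 and 12.3 FPKM (log2 difference -0.58). MamRep38, a hAT element, fell from 7.63, 8.40 and 8.48 to 3.73, 4.40 and 3.93 (-0.94). Neither overlapped between genotypes, and both calls held under every alternative tried. MER91C, a Tip100 element, fell by 1.18 on the log2 scale, but rested on a mean of 18.3 units per library. MER99 (-0.70), Tigger11a (-0.69) and Charlie7a (-0.61) were also called lower. MER99 and Charlie7a lost the call after rescaling to the gene read set (limma adjusted p = 0.096 and 0.10), and Tigger11a without single libraries.

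Looper was called higher. It is the only PiggyBac element of the set, of a superfamily whose active relatives in other animals serve as gene transfer tools. Its FPKM was 12.8, 15.9 and 13.2 in wild-type and 22.1, 19.3 and 21.7 in Daxx-null serum, against 7.67 to 10.7 in all 2i and retinoic acid libraries. All 3 Daxx-null serum libraries were above every other library, and the difference was 0.58 ± 0.12 (SE; limma adjusted p = 0.0061). Charlie9 (0.51, from 5.06 to 5.87 up to 7.60 to 8.71 FPKM) and Charlie24 (0.34, from 26.2 to 27.8 up to 32.1 to 37.0) did not overlap between genotypes either, but lost the call without single libraries. MER45B (0.55) and ORSL-2a (0.89, a mean of 17.7 units) lost it after rescaling to the gene read set.

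**Figure D2:**
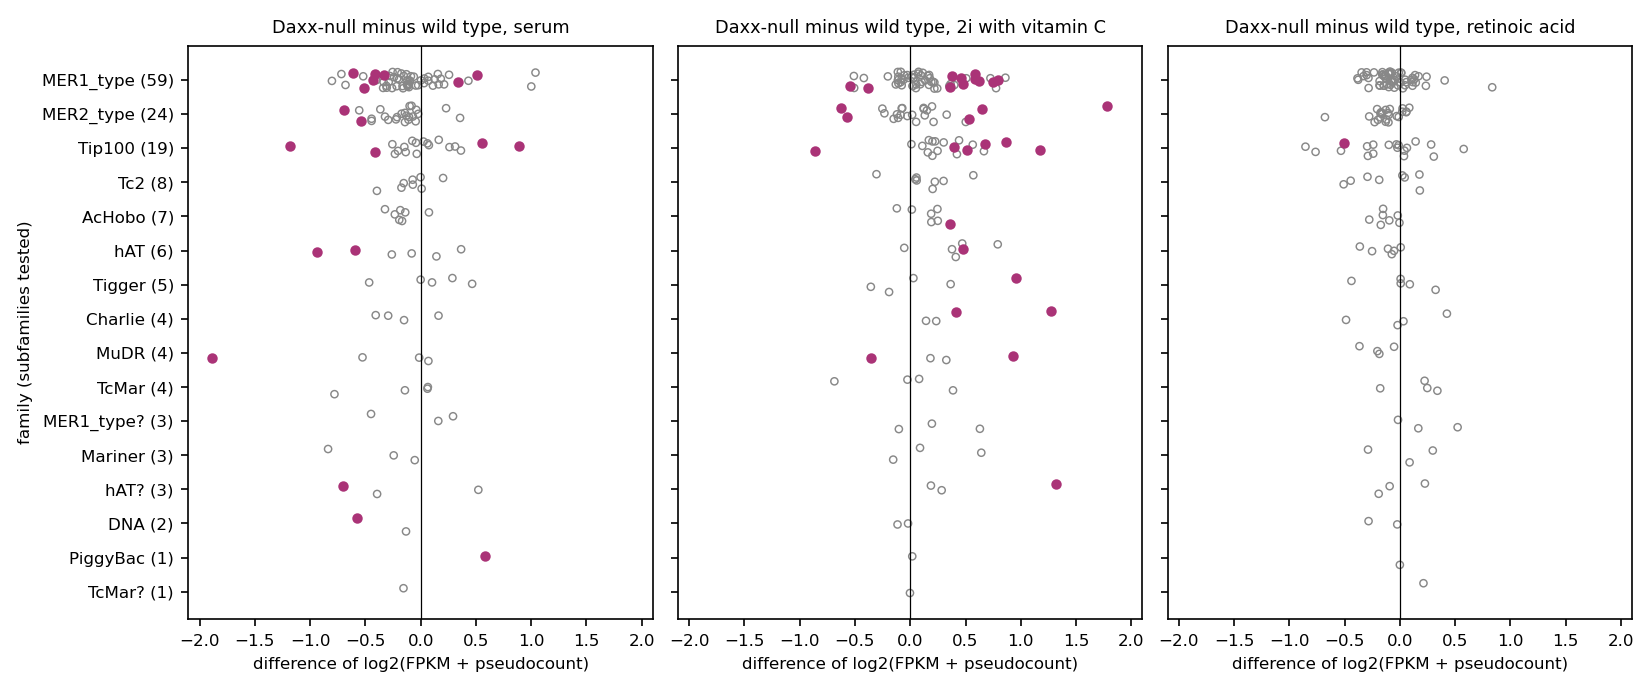
Daxx-null minus wild-type difference of log2(FPKM + 0.526) for the 153 tested DNA transposon subfamilies (points), by annotated family, in serum, 2i with vitamin C and retinoic acid. Filled points passed an adjusted p under 0.05 over all 864 repeats: 19 in serum, 30 in 2i and 1 in retinoic acid.

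In 2i more subfamilies were called, and mostly higher in Daxx-null libraries, at close to the rate of all repeats. Of 153, 24 were called higher (15.7%), where 17.8% of all repeats were, and 6 lower (3.92%), where 5.44% were. The median log2 difference was 0.16 for the class and 0.13 for all repeats. After rescaling to the gene read set 49 were higher and 4 lower, and these 49 held all 24, against 32.1% and 3.59% of all repeats. Without overlap, 35 were higher (26.0% of all repeats) and 6 lower (6.83%) as deposited, and 66 higher (38.1%) and 3 lower (3.70%) after rescaling. The calls depended on the libraries fitted: the 6 libraries of 2i alone gave 4 higher and 0 lower (31 of 153 had an unadjusted p under 0.05 in limma there). Without Daxx-null replicate 2 and wild-type replicate 3 there were 18 higher and 8 lower, with 11 lower without that Daxx-null library alone and 3 without that wild-type library alone. The share of all repeats is not given for these fits, so their counts do not set the class apart.

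Zaphod2, a Tip100 element with 165 copies, had an FPKM of 8.71, 9.83 and 8.71 in wild-type and 19.8, 27.3 and 17.3 in Daxx-null 2i. No library of one genotype reached the other's range, and the difference was 1.17 ± 0.16 (SE; limma adjusted p = 0.00015), which passed under every alternative. The same element reached 40.0 to 54.6 in wild-type retinoic acid. MER45B, of the same family, rose from 1.90, 1.87 and 1.55 to 4.51, 3.49 and 3.13 FPKM (0.87 ± 0.17, SE; limma adjusted p = 0.0027) and likewise passed under every alternative.

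MER99, an element placed with doubt in hAT, had an FPKM of 5.14, 6.42 and 3.39 in wild-type and 13.6, 17.2 and 9.12 in Daxx-null 2i. All Daxx-null libraries were higher, by 1.32 ± 0.21 (SE; limma adjusted p = 0.00075). Tigger12A had the largest difference, 1.78 ± 0.38 (SE; limma adjusted p = 0.0053), with 4.10, 3.64 and 0.778 FPKM in wild-type and 13.9, 6.96 and 8.83 in Daxx-null libraries, from a mean of 70.8 units. The groups did not overlap in either case, and both calls were lost only when the 2i libraries were fitted alone. Charlie15a rose from 3.39 to 4.25 up to 5.56 to 10.1 FPKM (0.79), and Ricksha_0, a MuDR element with a mean of 30.7 units, by 0.93.

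Charlie13b and the Tigger16a entry of the Tigger family were far higher in Daxx-null 2i replicate 2 than in its replicates. Charlie13b was at 2.24, 10.6 and 3.04 FPKM in the Daxx-null 2i replicates 1, 2 and 3 and at 0.954 to 2.18 in wild type. Its call (1.28, limma adjusted p = 0.037) was lost without Daxx-null replicate 2. Tigger16a was at 10.0, 24.7 and 7.55 FPKM against 5.59 to 6.69 (0.96, limma adjusted p = 0.024).

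Of the 6 called lower in Daxx-null 2i, Arthur1B, a Tip100 element with 478 copies, moved most. Its FPKM was 11.7, 12.5 and 16.5 in wild-type and 8.61, 6.87 and 6.09 in Daxx-null libraries, without overlap, a difference of -0.86 ± 0.15 (SE; limma adjusted p = 0.0011). Tigger9b (-0.63), Tigger11a (-0.57), MER113A (-0.54), Charlie6 (-0.38) and Ricksha (-0.35) were the others, and Ricksha lost the call after rescaling to the gene read set (limma adjusted p = 0.14). Charlie6, the element with the highest FPKM of the class, fell from 72.5, 76.0 and 82.1 to 67.3, 54.1 and 55.6, and its call was lost after rescaling to the gene read set or without wild-type replicate 3. Tigger11a was lower in Daxx-null libraries of both serum and 2i, at a mean of 21.8 units. Its 2i call and that of MER113A were each lost under 6 alternatives, and those of Arthur1B and Tigger9b each under 1.

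After retinoic acid almost no DNA transposon was called between genotypes. None of 153 was called higher, where 0.116% of all repeats were, and 1 was called lower, where 1.04% were, and 20 had an unadjusted p under 0.05. The median difference was -0.08 for the class and -0.10 for all repeats. Without overlap, 9 were higher (4.63% of all repeats) and 27 lower (31.5%). After rescaling to the gene read set 0 were called, where 0.0% of repeats were higher and 0.463% lower, and 28 had an unadjusted p under 0.05. The share of all repeats with such a p is not given on either scale. On that scale 45 of 153 (29.4%) were lower without overlap, where 42.0% of all repeats were. MER115, a Tip100 element with 569 copies, was the one called: 6.06, 5.70 and 5.26 FPKM in wild-type against 3.41, 3.56 and 4.67 in Daxx-null libraries. The groups did not overlap, at -0.50 ± 0.09 (SE; limma adjusted p = 0.020), but the call was lost under rescaling to the gene read set (limma adjusted p = 0.075) and without single libraries of this culture.

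**Figure D3:**
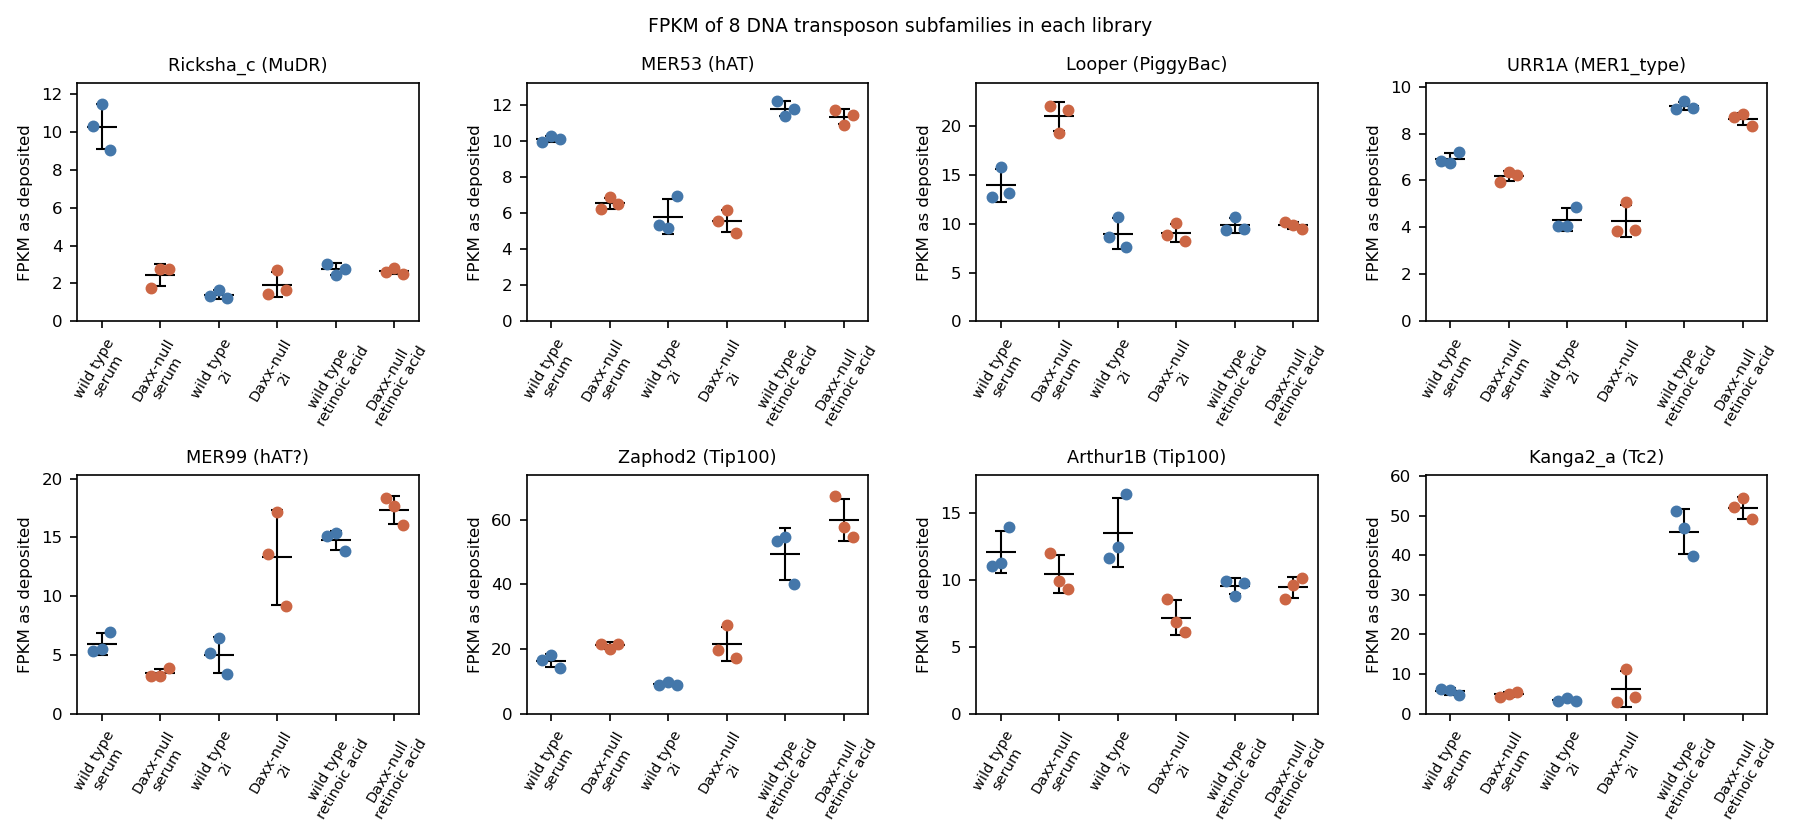
FPKM as deposited of 8 subfamilies in each library (points), with mean ± SD of 3 libraries per group. Ricksha_c is high only in wild-type serum, Looper is highest in Daxx-null serum, MER99 and Zaphod2 are higher in Daxx-null than in wild-type 2i, and Kanga2_a is high in retinoic acid in both genotypes.

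The difference between genotypes was compared between cultures as well. Y-linked RNA was present in Daxx-null 2i (173.2 to 236.5) and nearly absent in Daxx-null serum, so in 2i minus serum a difference between cultures and one between the Daxx-null cells used cannot be told apart. In 2i minus serum, 29 subfamilies had a more positive difference (17.6% of all repeats did) and 3 a more negative one (4.28%). Ricksha_c led with 2.21 ± 0.25 (SE; limma adjusted p = 5.0e-05), since it fell in serum and was at 1.22 to 2.69 FPKM in all 2i libraries. MER99 followed with 2.03 ± 0.30 (SE; limma adjusted p = 0.00049). It was 5.30, 5.52 and 6.98 FPKM in wild-type and 3.18, 3.24 and 3.85 in Daxx-null serum, so that its genotypes were ordered one way in serum and the opposite way in 2i. Between retinoic acid and serum, 2 were more positive (0.463% of all repeats) and 1 more negative (1.62%), and Ricksha_c (1.83) kept its call under every alternative.

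The cultures themselves separated many more subfamilies than the genotype did, in comparisons that share the wild-type serum libraries with each other and with the serum comparison. In wild-type 2i against serum, 94 of 153 were called lower (50.5% of all repeats were) and 2 higher (9.84%), with a median of -0.54 for the class and -0.36 for all repeats. Without overlap, 107 were lower (56.6% of all repeats) and 3 higher (10.9%). In wild-type retinoic acid against serum, 92 were called higher (50.7% of all repeats) and 10 lower (8.33%), with medians of 0.42 and 0.30. Without overlap, 103 were higher (59.6% of all repeats). After rescaling to the gene read set the 2i comparison gave 46 lower (16.8% of all repeats) and 9 higher (14.9%), all 46 being among the 94, with medians of -0.24 and -0.05. The retinoic acid comparison then gave 26 higher (10.9%) and 34 lower (32.3%), and the class median became -0.07, with -0.18 for all repeats. All 26 were among the 92. Without overlap on that scale, 2i gave 68 lower (28.4% of all repeats) and 13 higher (18.2%). Retinoic acid gave 41 higher (16.4%) and 49 lower (44.9%). The L2, CR1 and MIR subfamilies went from 12 of 12 called higher in retinoic acid to 1 of 12 by the same rescaling.

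**Figure D4:**
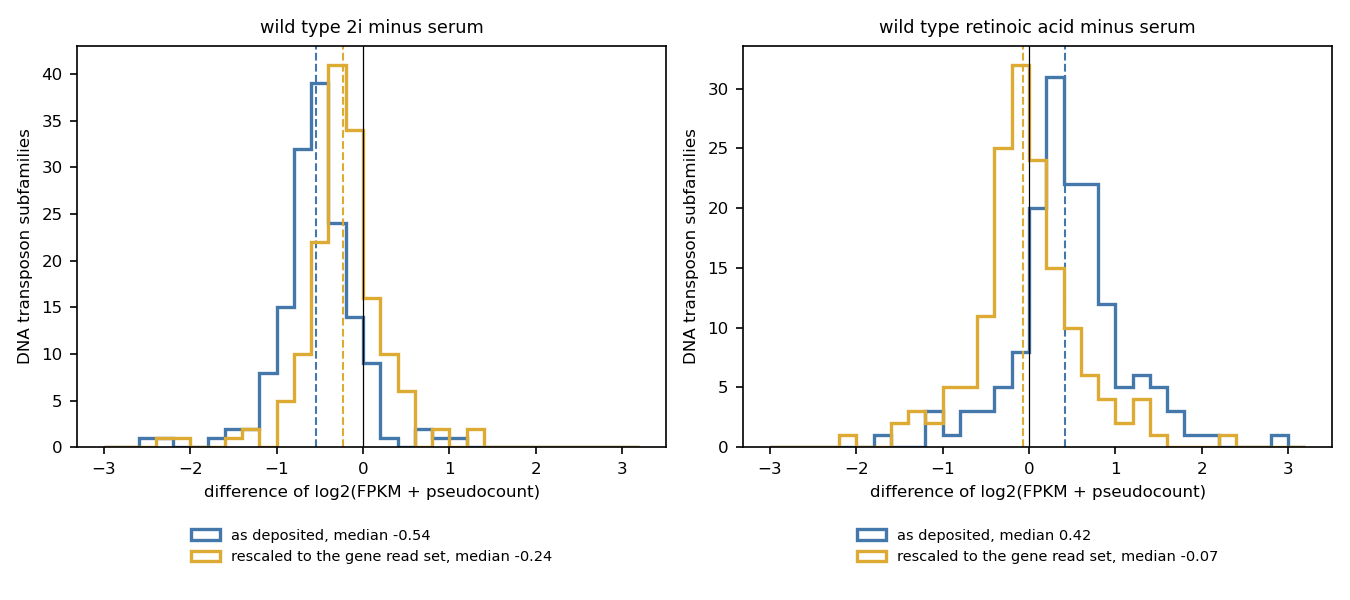
Number of DNA transposon subfamilies (of 153) by their wild-type difference between cultures in log2(FPKM + pseudocount), as deposited and after rescaling to the gene read set. Dashed lines are medians, which move from -0.54 to -0.24 in 2i minus serum and from 0.42 to -0.07 in retinoic acid minus serum.

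The rise of Kanga2_a, a Tc2 element with 357 copies, was the largest with retinoic acid and held on both scales. Its wild-type FPKM went from 6.29, 5.87 and 4.59 in serum to 51.1, 46.9 and 39.8, a ratio of means of 8.23. Daxx-null libraries went from 4.21, 5.07 and 5.34 to 52.1, 54.6 and 49.1. No serum library of either genotype came near any retinoic acid library, and the wild-type difference was 2.93 ± 0.31 (SE; limma adjusted p = 2.7e-06), or 2.36 after rescaling. The Tc2 family as a whole had 2.35 times as many units per M gene-set units in wild-type retinoic acid as in serum.

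The next elements by size also held on both scales. Tigger16a of the Tigger family (2.06, or 1.49 rescaled) went from 10.2 to 12.1 FPKM in wild-type serum to 47.1 to 51.3 in retinoic acid. MER45A, a Tip100 element, went from 1.54 to 1.96 up to 7.52 to 8.35 (1.88, or 1.35 rescaled). MamRep137, placed with doubt in TcMar, went from 3.44 to 3.93 up to 12.6 to 15.0 (1.78, or 1.23 rescaled), while MamRep1894 (1.79) rested on a mean of 18.5 units. No group overlapped in these, and all 4 kept the call in every alternative. Called lower in retinoic acid were Ricksha_c (-1.72), Ricksha_0 (-1.03), Charlie10b (-1.01), MER106A (-0.82) and MER112 (-0.74), of which Charlie10b had a mean of 14.4 units and lost the call without single libraries.

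In wild-type 2i the leading falls were Ricksha_c (-2.49), Charlie10b (-2.23), Tigger12c (-1.76), MER44C (-1.31) and Charlie15a (-1.30). Tigger12c, a Tc1/mariner element, went from 10.9 to 12.1 FPKM in serum down to 2.50 to 3.99. MER44C, of the same superfamily, went from 9.14 to 9.90 down to 2.90 to 3.86. The groups did not overlap in either. MER20B, a hAT element, was called higher (0.64), at 2.65 to 3.30 FPKM in serum and 4.51 to 5.40 in 2i, and MER97a (0.75) had a mean of 8.0 units.

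The wild-type culture calls were also read in the Daxx-null libraries. These did not enter the wild-type means, but they shared the filter and the estimate of spread behind each call. The reading is therefore not independent of the calls. Of the 92 subfamilies called higher in wild-type retinoic acid, all 92 had a higher mean in Daxx-null retinoic acid than in Daxx-null serum, and in 84 (91.3%) the 3 libraries did not overlap, against 86.4% of the other repeats called higher. Non-overlap in that direction was seen in 54.2% of all 864 repeats. Of the 10 called lower, 8 were on the same side and 7 did not overlap (13.8% of all repeats). Of the 34 called lower after rescaling, 30 were on the same side and 25 (73.5%) did not overlap, against 93.1% of the other repeats called lower. Of the 94 called lower in wild-type 2i, 83 had a lower mean in Daxx-null 2i and 46 (48.9%) did not overlap, against 53.2% of other repeats, with 31.2% as the share over all repeats. After rescaling 46 were called lower, of which 27 were on the same side and 11 (23.9%) did not overlap. That was against 20.2% of the other repeats called lower and 7.29% of all repeats. Daxx-null 2i and Daxx-null serum cells also differed in Y-linked RNA.

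As deposited, Daxx-null 2i replicate 2 was the highest of its group for most DNA transposons, 118 of all 153. Per M gene-set units its class total was the lowest of the group, at 1853 units against 1874 and 2010. The count by subfamily was not made after rescaling or over all repeats. A cut chosen after the values were seen left 22 subfamilies called higher by at least 1 log2 unit in wild-type retinoic acid. In 19 of them replicate 2 was, as deposited, the highest of the 3 Daxx-null 2i libraries. Among the 60 other repeats past the same cut it was highest in 40. Kanga2_a was at 3.01, 11.4 and 4.17 FPKM in replicates 1, 2 and 3. The same library held the high neural markers (Tubb3 at 1204 against 213 and 164), and the part of those cells in the DNA transposon values was not tested. The median coefficient of variation of the class was 22.6% in Daxx-null 2i and 8.07 to 12.6% in the other 5 groups.

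**Figure D5:**
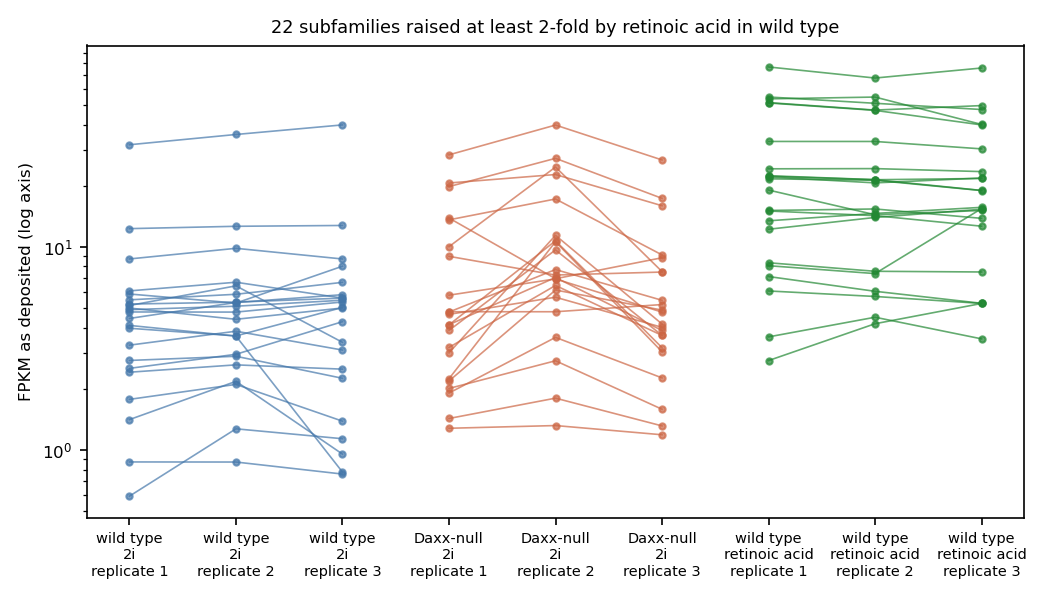
FPKM as deposited, on a log axis, of the 22 subfamilies called higher by at least 1 log2 unit in wild-type retinoic acid against serum, in the 9 libraries of wild-type 2i, Daxx-null 2i and wild-type retinoic acid. Each line joins the values of 1 subfamily within a group; Daxx-null 2i replicate 2 is the highest of its 3 libraries in 19 of 22.

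The calls were spread over the families. In serum the median Daxx-null minus wild-type difference was negative in every family except MER1_type?, PiggyBac and Tigger, and ranged from -0.39 (hAT?) to 0.58 (PiggyBac, 1 subfamily). Most serum calls lay in MER1_type (2 higher, 5 lower of 59), Tip100 (2 and 2 of 19), MER2_type (0 and 2 of 24) and hAT (0 and 2 of 6). In 2i, MER1_type held 9 higher and 2 lower and Tip100 held 5 higher and 1 lower, while none of the 8 Tc2, 4 TcMar and 3 Mariner subfamilies was called in any of the 3 Daxx comparisons as deposited. After rescaling 1 of these, the TcMar element MamRep434, was called higher in Daxx-null 2i (0.53, limma adjusted p = 0.011). Summed over a family, MuDR showed 0.475 times the wild-type share of repeat reads in Daxx-null serum, and PiggyBac, which is Looper alone, 1.51 times. In MuDR 1 of the 4 subfamilies tested was called, Ricksha_c, with a ratio of means of 0.236. The ratio was 0.583 for Ricksha_0, 0.996 for Ricksha and 1.14 for Ricksha_a.

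With retinoic acid in wild type the family medians ranged more widely than in the Daxx comparisons, from -0.54 for MuDR to 1.78 for TcMar? (1 subfamily). In MuDR, 1 of 4 subfamilies was called higher and 2 lower. Called higher were 41 of 59 MER1_type, 13 of 24 MER2_type and 11 of 19 Tip100 subfamilies. So were 5 of 8 Tc2 and 5 of 7 AcHobo subfamilies, and 50.7% of all repeats. After rescaling to the gene read set 7 MER1_type, 2 MER2_type, 5 Tip100, 2 Tc2 and 0 AcHobo subfamilies were called higher, where 10.9% of all repeats were. The family medians then lay between -1.03 for PiggyBac and 1.23 for TcMar? (1 subfamily each). Per M gene-set units, wild-type retinoic acid cells held 1.52 times the serum level of RNA of the annotated Tigger family, which has 5 subfamilies. Tigger1, Tigger5 and Tigger7, which have more copies, are annotated in MER2_type, where the ratio was 0.862. It was 0.925 for MER1_type, 0.485 for MuDR and 0.472 for PiggyBac. With 2i, 42 MER1_type, 18 MER2_type and 7 Tip100 subfamilies were called lower as deposited and 22, 9 and 2 after rescaling. Of all repeats 50.5% and 16.8% were.

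In the Daxx comparisons, large differences belonged to subfamilies with few copies. The 25 subfamilies with at least 1000 copies gave 1 call in serum (MER53), 1 in 2i (MER3, 0.36) and 0 in retinoic acid, with a largest absolute log2 difference of 0.59. Among the 108 with at least 100 and fewer than 1000 copies 16, 25 and 1 were called, and among the 20 with fewer than 100 copies 2, 4 and 0. Across the 153 subfamilies the Spearman correlation of the absolute difference with the number of copies was -0.20, -0.43 and -0.41 in serum, 2i and retinoic acid. These values share libraries and depth, and subfamilies with few copies also had fewer units (a median of 18.1 against 3500). Correlations with divergence were between -0.05 and 0.07 in these comparisons. In wild-type 2i and retinoic acid against serum, the absolute difference correlated with the number of copies at -0.006 and -0.08. Its correlations with divergence there were -0.20 and 0.006. As deposited, 24 and 21 of the 25 abundant subfamilies were called in the wild-type comparisons of 2i and retinoic acid with serum. Their largest absolute difference was 0.77. Of all repeats, 50.5% were called lower and 9.84% higher in 2i, and 50.7% higher and 8.33% lower in retinoic acid. After rescaling the whole class had 46 lower and 9 higher in 2i, and 26 higher and 34 lower in retinoic acid. Calls were not counted by copy number on that scale.

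Genes of the host that descend from DNA transposases were followed on a list of 28, of which 27 were in the files and 24 reached an FPKM of 1 or more in 3 or more libraries. They are host proteins, many of them DNA-binding, and their FPKM is per gene and on the gene read set. In serum 6 of 24 were called higher (9.29% of 18002 genes were) and 1 lower (18.9%). Tigd5, with the pogo-like domain of the Tigger elements, was at 3.22, 3.21 and 2.47 FPKM in wild-type and 5.52, 8.74 and 10.4 in Daxx-null libraries (1.29 ± 0.32, SE; limma adjusted p = 0.0074). Jrk, of the same descent, rose from 18.1 to 26.9 up to 39.4 to 40.6 (0.76), and Thap3, with a THAP domain like that of the P element transposase, fell from 92.7 to 98.8 down to 51.7 to 60.1 (-0.77). None of the 3 overlapped between genotypes. Thap6 (0.57), Zbed5 (0.58), Thap7 (0.41) and Thap12 (0.32) were the others called higher, and each lost the call without single libraries.

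In 2i 8 of 24 were called higher, where 31.5% of genes were, and 2 lower, where 15.3% were. Pgbd5, descended from a PiggyBac transposase (mm9, chromosome 8, 126892949 to 126957836), was at 49.9, 46.4 and 44.9 FPKM in wild-type and 168, 96.0 and 143 in Daxx-null 2i (1.48 ± 0.23, SE; limma adjusted p = 0.00012). Pogk, descended from a pogo-like transposase (mm9, chromosome 1, 168323742 to 168339959), was at 4.67, 5.30 and 0.492 against 12.1, 61.6 and 15.0 (2.89 ± 0.61, SE; limma adjusted p = 0.0013). Neither gene overlapped between genotypes, and the Pogk value was highest in Daxx-null replicate 2 and lowest in wild-type replicate 3. Cenpb, the pogo-derived protein that binds centromeric satellite, fell from 533 to 582 down to 282 to 341 (-0.84). Naif1, related to the Harbinger transposases, fell from 33.3 to 34.5 down to 17.7 to 27.1 (-0.61), and Thap4 rose from 286 to 289 up to 404 to 477 (0.61). Without wild-type replicate 3 the higher calls were 3, and Gtf2ird2 (0.72), Pgbd1 (0.88), Thap2 (1.07), Thap6 (0.49) and Zbed5 (0.51) lost theirs.

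After retinoic acid Thap4 was called higher in Daxx-null libraries (0.29, limma adjusted p = 0.034), where 0.222% of genes were, and none was called lower (2.27% of genes). Its FPKM was 170 to 188 in wild-type and 217 to 230 in Daxx-null libraries, without overlap, and the call was lost without any 1 of the 6 libraries. Among the wild-type cultures, 12 of 24 were called higher in retinoic acid than in serum (30.4% of genes) and 4 lower (34.1%), and 8 were called higher in 2i (24.7%) and 5 lower (24.8%).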

How the data were processed

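RNA of 18 libraries was measured in 6 groups of 3, named from the sample titles. The authors deposited FPKM of genes and of 906 repeat subfamilies. The tools, per the submitters' processing notes, were HOMER 4.8, Bowtie2 2.2.6 and limma, and the build was mm9. Strand and the handling of reads that match several copies are not given in the sources used here. Elements therefore cannot be separated from transcripts that contain or oppose them. The protocols name an oligo-dT step and ribosomal RNA depletion, the series design only the latter. The deposited FPKM are not scaled to 1 M, and a total of 10 M was inferred from the values. Whole units were recovered from low values, of which 100% were within 0.1 of a whole number in every library. They give depth and the precision of low values, and each value per gene set was the repeat value times the ratio of the 2 depths.

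The class was the second field of each repeat name. Members, gene lists and tests were chosen with earlier results of these data known. Repeats were tested with limma 3.58.1 (R 4.3.3, trend) on log2(FPKM + 0.526), the 5th percentile of values above 0, and genes on log2(FPKM + 0.5) for 18002 of 24505 entries. All 18 libraries entered 1 fit of 6 group means. These log2 differences understate the change of low values. Named subfamilies were, by rule, up to 8 called per direction with the largest differences for each Daxx comparison, up to 5 for the others, those with most copies or highest FPKM per family, URR1A, URR1B and RChar1, the 3 with the lowest divergence, and, among genes, all called members of the list. RChar1 matched no name. RCHARR1, MER3 and the count over 22 subfamilies were chosen after values were seen. A deposited gene table holds log2 expression normalized by the authors with a method not stated, and was only compared with the FPKM (Spearman correlation 1 over the 24505 entries of each library). Alternatives were another pseudocount, other filters, quantile normalization, median-ratio scaling, rescaling to the gene read set, a replicate block, the compared groups alone and leaving out each library. Leaving out both 2i libraries that stand apart was added after seeing the data.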

Additional observations from a re-analysis of the deposited data

Results flagged for a closer look

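For 8 subfamilies the effect of Daxx in 2i differed from that in serum by the limma test of the difference itself, and they are given as Daxx-null minus wild type in 2i, minus the same in serum, on the log2 scale. The difference was 2.21 for Ricksha_c, 2.03 for MER99, 1.62 for MER91C, 1.45 for Ricksha_0 and 1.43 for the Tigger16a entry of the Tigger family. It was -0.66 for Arthur1B, -0.63 for Charlie16a and -0.56 for Looper. These are the subfamilies that the naming rule picked among 32 called. Ricksha_c, MER99, MER91C and Ricksha_0 passed under every alternative tried, while the others each lost the call in at least 1 (Looper also after rescaling to the gene read set, limma adjusted p = 0.0998). Daxx-null 2i cells held Y-linked RNA that Daxx-null serum cells nearly lacked, so a difference between cultures and one between the cells used cannot be told apart here.

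For the difference between retinoic acid and serum the same test gave 1.83 for Ricksha_c, 0.64 for Charlie22a and -1.74 for ORSL-2a. Of these, Ricksha_c passed under every alternative. Charlie22a and ORSL-2a lost the call after rescaling to the gene read set (limma adjusted p = 0.20 and 0.058). ORSL-2a rests on a mean of 17.7 units per library.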

How the results depend on the processing

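Of 56 named subfamily results 28, and of 18 named gene results 8, passed the threshold under every alternative tried, and none of these results changed direction. The 56 are called results picked for their large differences. Outside them direction was not always kept. The wild-type retinoic acid minus serum difference of URR1A and the class median of that comparison both changed sign after rescaling to the gene read set. The scale and the choice of libraries moved the counts, and the cause was not tested beyond those changes. Counts are of subfamilies called higher or lower, without the share of all repeats under the same alternative. Under quantile normalization, serum gave 8 higher, 2i gave 22 lower, retinoic acid 0 lower, 2i minus serum 16 higher and 12 lower, retinoic acid minus serum 3 lower, wild-type 2i 11 higher, and wild-type retinoic acid 40 higher and 23 lower; among the genes, 2i gave 3 higher and 5 lower. Under median-ratio scaling, serum gave 9 higher and 9 lower, 2i 15 lower, retinoic acid 0 lower, 2i minus serum 19 higher and 12 lower, retinoic acid minus serum 2 lower, wild-type 2i 12 higher and 53 lower, and wild-type retinoic acid 45 higher and 20 lower. Rescaled to the gene read set, 2i gave 49 higher, retinoic acid 0 lower, retinoic acid minus serum 1 higher and 0 lower, wild-type 2i 9 higher and 46 lower, and wild-type retinoic acid 26 higher and 34 lower. With only the groups compared, serum gave 22 lower, 2i 4 higher and 0 lower, retinoic acid 0 lower, 2i minus serum 19 higher and 0 lower, and retinoic acid minus serum 8 higher and 2 lower. A pseudocount 4 times as large gave 2 lower in retinoic acid and 1 higher in retinoic acid minus serum, no filter 1 higher there, and a value above 0 in all 18 libraries 2 lower in retinoic acid and 1 higher in wild-type 2i. Without both 2i libraries that stand apart, chosen after seeing the data, 2i minus serum gave 7 lower, and rescaled as well, wild-type 2i gave 14 higher and 36 lower.

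Leaving out 1 library gave 2 to 4 higher and 9 to 9 lower in serum, 18 to 29 higher and 3 to 11 lower in 2i, 0 to 0 higher and 0 to 1 lower in retinoic acid, 20 to 34 higher and 0 to 7 lower in 2i minus serum, 1 to 2 higher and 0 to 1 lower in retinoic acid minus serum, 1 to 2 higher and 83 to 97 lower in wild-type 2i, and 77 to 83 higher and 8 to 10 lower in wild-type retinoic acid. Among the genes it gave 3 to 5 higher and 1 to 2 lower in serum, 3 to 8 higher and 2 to 4 lower in 2i, and 0 to 0 higher and 0 to 0 lower in retinoic acid.

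Replicate numbers did not pair the libraries, since same-numbered deviations correlated between -0.16 and 0.15. With a replicate block, retinoic acid minus serum gave 1 higher, serum gave 5 higher and 13 lower, 2i gave 21 and 6, retinoic acid 0 and 1, and all other counts stayed within 1.5 times. Depth limits 42 subfamilies with a mean under 100 units.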
